A study of Mus musculus with 6 samples.

Results

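The beta-defensins Defb1, Defb3, Defb4 and Defb6 were followed by taking every probe that the array files name after one of them. Of these 4 gene names 3 had a probe, and 4 of the 41174 probes on the array carried such a name: 1 for Defb3, 1 for Defb6 and 2 for Defb1. No probe was named Defb4. The files list transcripts of 3 genes, Defb3, Defb4 and Defb8, for the Defb3 probe, so a value from that probe is a reading of these genes together, and their shares cannot be told apart. RNA came from epithelial sheets of the mouse forestomach, the squamous-lined part of the stomach. The 3 controls carried K5-CreER, a recombinase that tamoxifen activates and that the keratin 5 promoter drives in basal cells. The 3 mutants carried K5-CreER together with Rosa26Sox2/Sox2, a Sox2 transgene on both Rosa26 alleles. All animals, controls included, received 2 doses of tamoxifen at 7 weeks, were 12 weeks old per the labels and had a mixed 129/Sv and C57/BL6 background. On every array the tissue RNA was in the Cy5 channel (the sample channel) and Universal Mouse Reference RNA, from 11 mouse cell lines, in the Cy3 channel (the reference channel), and no array had its dyes swapped. The labels call the samples biological replicates without saying whether RNA of several animals was pooled, so p-values measure only the spread between these samples, which may be partly technical.

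Beta-defensins are small cationic peptides with paired cysteines that epithelia secrete. They damage bacterial and fungal membranes, and several bind chemokine receptors, CCR6 among them, on immune cells. In the mouse, Defb1 is known as a largely constitutive member of skin, airway, kidney and other epithelia, whereas Defb3, the counterpart of human beta-defensin 2, and Defb4 are known for induction by microbes and by cytokines such as IL-1 and IL-17. Defb6 is known from tongue, oesophagus, airway and skeletal muscle. Most genes of the family lie in clusters on chromosome 8, where recent copies keep a nearly identical signal peptide.

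The arrays were of unequal quality and not equally distinct. On control 3, 62.6% of probes had a sample signal well above background, against 73.1% to 76.2% on the other 5 arrays, and its median signal over background was 4.66 against 11.3 to 12.4. The spread of probe-wise differences (median absolute deviation, scaled to an SD) was 0.156 log2 units between controls 1 and 2 and 0.104 between mutants 2 and 3, whereas it was 0.326 to 0.730 for all other pairs. Controls 1 and 2 lay on slide 1, control 3 on slide 2 with a scan day of its own, and the mutants on slide 3. Effects of slide and of genotype cannot be told apart. All 16 squamous epithelium markers were well above background on every array. Their median log2 ratio was 3.799 to 4.82 on the controls and 3.27 to 3.56 on the mutants, and 15 of the 16 were lower in mutants (median difference -0.58), though none was called. Of all 20570 genes tested 10404 were higher in mutants, with a median difference of 0.01. In the sample channel alone the median difference of the markers was -0.22, with 1 called higher and 1 lower, where 1.68% of all genes were called. The part of this shift in the defensin results was not tested. Markers of glandular stomach, which adjoins the tissue, had a summed sample signal of 2015690, 1885280 and 36343 on controls 1 to 3 and of 327123, 1308480 and 925964 on mutants 1 to 3. The Sox2 probe averaged a log2 ratio of 6.24 in the controls (SD 0.15, n = 3) and of 5.82 in the mutants (SD 0.14, n = 3), with an adjusted p of 0.143 in limma. It starts at base 1846 of a transcript of 2467 bases. The sources used here do not say whether the transgene holds that stretch, so the probe does not check the labels.

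The Defb3 probe begins just before the start codon and reads the signal peptide, which the family shares. It is shown from the start codon (capitals) on, above the same stretch of the 5 genes whose start regions matched it among 32851 RefSeq windows of assembly GRCm38.p6. In the gene lines capitals mark the bases that differ from the probe, and shorter lines end where the RefSeq window ends.
Defb3 probe: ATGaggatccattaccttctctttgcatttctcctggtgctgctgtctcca
Defb46: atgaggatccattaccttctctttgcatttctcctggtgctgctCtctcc
Defb3: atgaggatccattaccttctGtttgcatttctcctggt
Defb5: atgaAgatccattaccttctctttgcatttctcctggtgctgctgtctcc
Defb8: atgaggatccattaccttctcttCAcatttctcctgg
Defb7: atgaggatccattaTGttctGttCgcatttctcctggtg

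Counted from 1 at the 5′ end of the 60-base probe, Defb46 matched 58 of 59 bases (G54C: G in the probe, C in the gene) and Defb5 matched 57 of 59 (T8C and G14A). Defb3 itself matched 46 of the 47 bases in its window (C30G), Defb8 44 of 46 (T33C and G34A) and Defb7 44 of 48. The table of windows had no entry for Defb4. The Defb6 probe and both Defb1 probes matched none of the windows. In the files' build, mm9, the Defb3 probe lies at chr8:19293364-19293423 and the Defb6 probe, which starts at base 203 of its transcript, at chr8:19228090-19228149. The Defb1 probes lie at chr8:22905030-22905089 and chr8:22905041-22905100 and share 49 bases, so they are not independent readings. In RefSeq's GRCm38.p6 the genes run from 19198704 to 19201547 (Defb4), 19225478 to 19228209 (Defb6), 19293361 to 19295339 (Defb3) and 21776555 to 21795185 (Defb1) on chromosome 8.

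The Defb3 probe and Defb6 were both higher in the mutants, by 22.4-fold and 22.8-fold in the ratio of sample over reference. Defb1 was high on every array. In the ratio its groups overlapped at the first probe but not at the second, where the mutants were lower, and neither probe passed the test. Of the 3 genes tested, 2 were therefore called higher, in a comparison that called 2.82% of 20570 genes, 287 higher (1.4%) and 294 lower (1.43%), at an adjusted p under 0.05. The Defb6 reference spot was well above background on no control, so the size of its fold is uncertain. Differences of at least 8-fold upwards, whatever their p, were found for 40 genes (0.194%). In bulk tissue, a change in the number of cells of a type and a change in RNA per cell cannot be told apart.

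**Figure D1:**
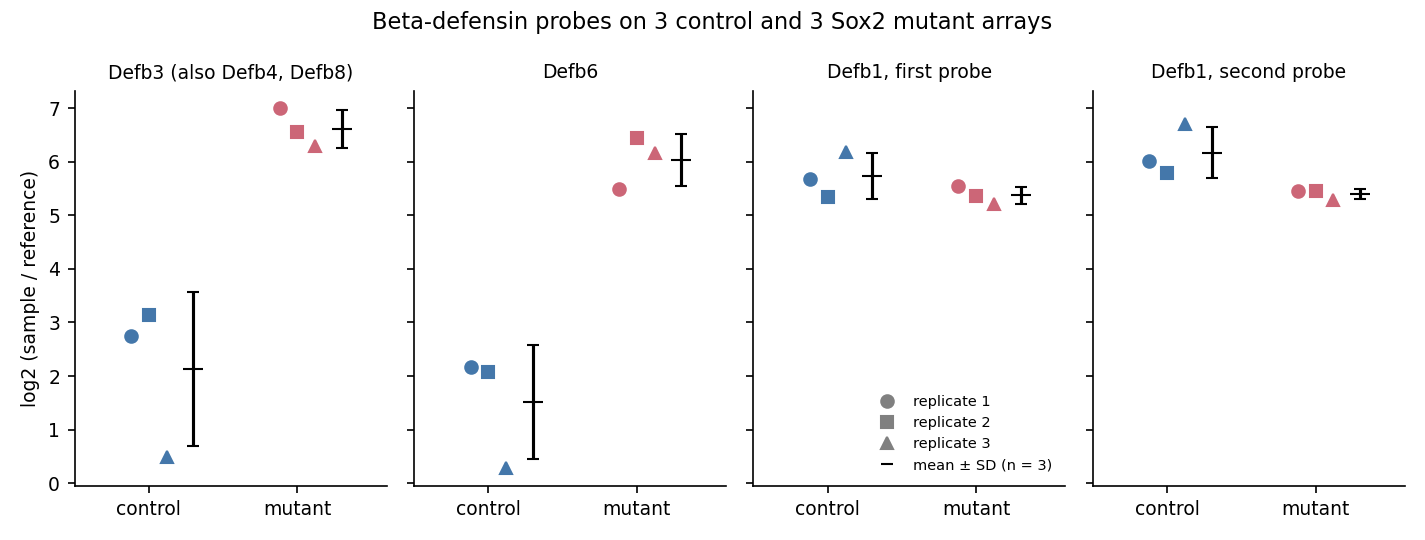
Log2 ratio of sample over reference for the 4 beta-defensin probes on each array, with symbols for replicates and bars for the mean ± SD (n = 3). The mutants sit at 6.29 to 6.99 for the Defb3 probe and at 5.49 to 6.43 for Defb6, above every control, while the first Defb1 probe overlaps between groups.

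The Defb3 probe is listed for the inducible Defb3 and Defb4, among others. Its raw sample-channel intensities were 961, 1363 and 340 on controls 1 to 3 and 75510, 42620 and 36994 on mutants 1 to 3. It was well above background on all 6 arrays, at 7.22 times the local background on control 3 and at 725 to 1573 times on the mutants. No spot was saturated. Its log2 ratios were 2.75, 3.14 and 0.49 in the controls and 6.99, 6.56 and 6.29 in the mutants. The lowest mutant thus stood above the highest control, and control 3 lay far below the other controls. Groups that did not overlap upwards were found for 19.6% of all genes tested. The means were 2.13 ± 1.43 (SD, n = 3) and 6.61 ± 0.36 (SD, n = 3), a log2 difference of 4.49 (SE 0.69, 95% confidence interval 2.83 to 6.14; limma, adjusted p = 0.0318). The exact two-sided permutation test over the arrays gave p = 0.1, the smallest that 3 against 3 arrays allow. Without control 3 the difference was 3.67 (12.7-fold, adjusted p = 0.00672). The call was lost without control 1 (4.80, adjusted p = 0.105), control 2 (4.996, 0.0847), mutant 1 (4.30, 0.0744), mutant 2 (4.51, 0.132) or mutant 3 (4.65, 0.126), with near-identical arrays averaged (4.99, 0.394) and with slide as a random block (4.76, 0.256).

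Defb6, a member known from tongue and oesophagus, gave raw sample intensities of 310, 319 and 79.8 on controls 1 to 3 and of 4490, 9729 and 10200 on mutants 1 to 3. On control 3 the sample spot was not well above background, at 2.22 times the local background, and the reference spot was well above background on all mutants but on no control. The log2 ratios were 2.17, 2.08 and 0.29 in the controls and 5.49, 6.43 and 6.15 in the mutants. As for the Defb3 probe, the groups did not overlap and control 3 was the lowest array, but here mutant 1 was the lowest of the mutants and not the highest. The means were 1.51 ± 1.06 (SD, n = 3) and 6.03 ± 0.49 (SD, n = 3), a log2 difference of 4.51 (SE 0.54, 95% confidence interval 3.20 to 5.83; limma, adjusted p = 0.0184; exact permutation p = 0.1). The difference was 3.90 without control 3 (adjusted p = 0.00824) and 4.78 without mutant 1 (0.0347). The call was lost without control 1 (4.84, adjusted p = 0.0695), control 2 (4.80, 0.0774), mutant 2 (4.31, 0.104) or mutant 3 (4.45, 0.104), with near-identical arrays averaged (4.69, 0.313) and with slide as a random block (4.72, 0.175).

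Defb1, the constitutive member, read raw sample intensities of 31117, 27945 and 16933 on controls 1 to 3 and of 93171, 58883 and 59448 on mutants 1 to 3 at its first probe. These are 353 to 741 times the local background in controls and 1111 to 2218 times in mutants. The log2 ratios were 5.67, 5.34 and 6.19 in the controls and 5.54, 5.36 and 5.21 in the mutants. Mutants 1 and 2 fell within the range of the controls. The means were 5.73 ± 0.43 (SD, n = 3) and 5.37 ± 0.16 (SD, n = 3), a log2 difference of -0.36 (SE 0.23, 95% confidence interval -0.93 to 0.21; limma, adjusted p = 0.384), with an interval that spans 0. At the second Defb1 probe the ratios were 6.01, 5.79 and 6.71 in controls and 5.45, 5.45 and 5.29 in mutants. All mutants lay below all controls here, a pattern whose share over all genes is not given in this direction. Upwards it was found for 19.6% of all genes tested. The difference was -0.77 (SE 0.24; limma, adjusted p = 0.133 over probes), a size not reached at the first probe. Defb4 has no value of its own here.

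**Figure D2:**
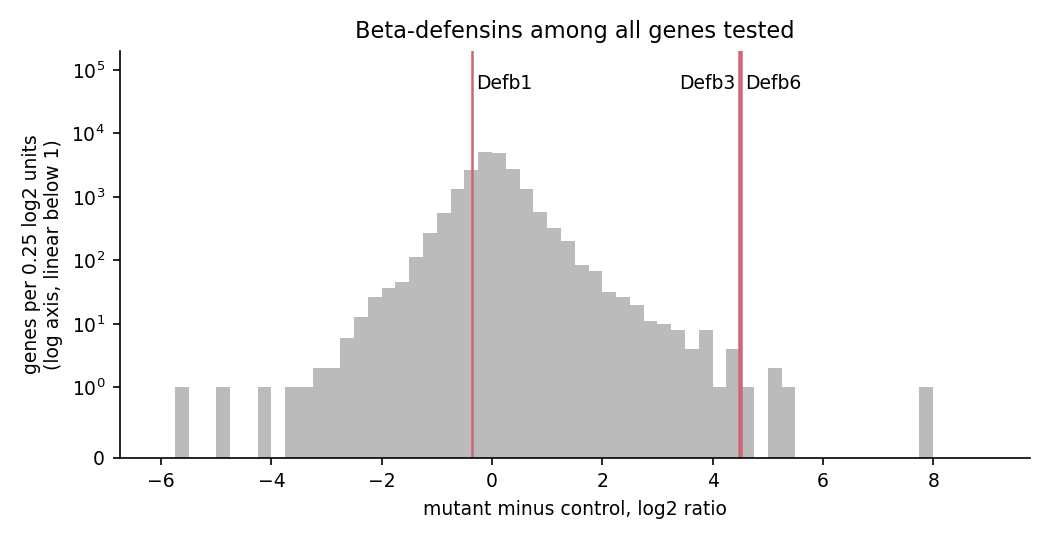
Number of genes by mutant minus control difference in log2 ratio, in bins of 0.25 log2 units on an axis that is logarithmic above 1, with lines at Defb1, Defb3 and Defb6. Defb3 (4.49) and Defb6 (4.51) lie in the sparse upper tail and Defb1 (-0.36) lies in the bulk.

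The 2 channels were then read apart, because the same reference RNA was on every array. In the sample channel alone, which called 1.68% of genes and 0.822% upwards, the Defb3 probe rose from 9.89 ± 0.31 to 15.3 ± 0.65 log2 intensity units (SD, n = 3 each), a difference of 5.40 (SE 0.35; 42.3-fold; limma, adjusted p = 0.00688). Defb6 rose from 7.79 ± 0.74 to 12.6 ± 0.58 (SD, n = 3 each), a difference of 4.86 (SE 0.45; 29.1-fold; limma, adjusted p = 0.0127). Both folds were larger than those of the ratio. The Defb3 call in this channel was lost without control 1 (adjusted p = 0.0688), control 2 (0.0543) or mutant 2 (0.0666), with near-identical arrays averaged (0.306) and with slide as a random block (0.383). For Defb6 it was lost without control 1 (0.0770), control 2 (0.0797), mutant 2 (0.0857) or mutant 3 (0.0793), with near-identical arrays averaged (0.396) and with slide as a random block (0.394).

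For Defb1 the sample channel pointed the other way from the ratio. It read 14.8, 14.5 and 15.4 log2 intensity units in controls and 16.3, 15.5 and 15.5 in mutants, all mutants above all controls, as for 17.9% of genes in this channel. The difference was 0.85 (SE 0.32, 95% confidence interval 0.07 to 1.63; 1.80-fold; limma, adjusted p = 0.220), and 1.07 (SE 0.30) at the second probe. The reference channel of the same spots was also higher in mutants, by 1.21 (SE 0.17; limma, adjusted p = 0.144) at the first Defb1 probe and by 1.84 (SE 0.22) at the second. Without mutant 1 that reference difference was 1.02 (adjusted p = 0.0422). The sign of the Defb1 difference thus changed between the ratio and the sample channel, and it also changed, to 0.13, when the ratios were scaled to one spread.

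At the Defb3 probe the reference channel differed by 0.91 (SE 0.59; adjusted p = 0.666) with overlapping groups, and control 3, at 9.14, was the highest of all arrays. Without control 3 it differed by 1.604 (adjusted p = 0.0347). At Defb6 the reference difference was 0.35 (SE 0.19; adjusted p = 0.649), again with overlap. In that channel 0.136% of all genes were called.

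After subtraction of the local background, the reference signal at the first Defb1 probe was 1.65% to 2.28% of the sample signal on all 6 arrays. At the Defb3 probe it was 11.1%, 7.05% and 96.8% of the sample signal on controls 1 to 3 and 0.688% to 1.05% on the mutants. At Defb6 it was 7.32%, 8.96% and 69.4% on controls 1 to 3 and 0.662% to 1.095% on the mutants. On control 3 both channels were thus close in brightness at these spots, and at Defb6 neither was well above background. Across genes, which are not independent replicates, the mutant minus control differences of the sample and reference channels correlated with r = 0.536 over all 20570 genes, with 0.517 over the 12940 genes with control log2 ratios between -1 and 1, and with 0.808 over the 183 genes with control log2 ratios of at least 5, Defb1 among them. The part of this shared movement in the Defb1 ratio was not tested.

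**Figure D3:**
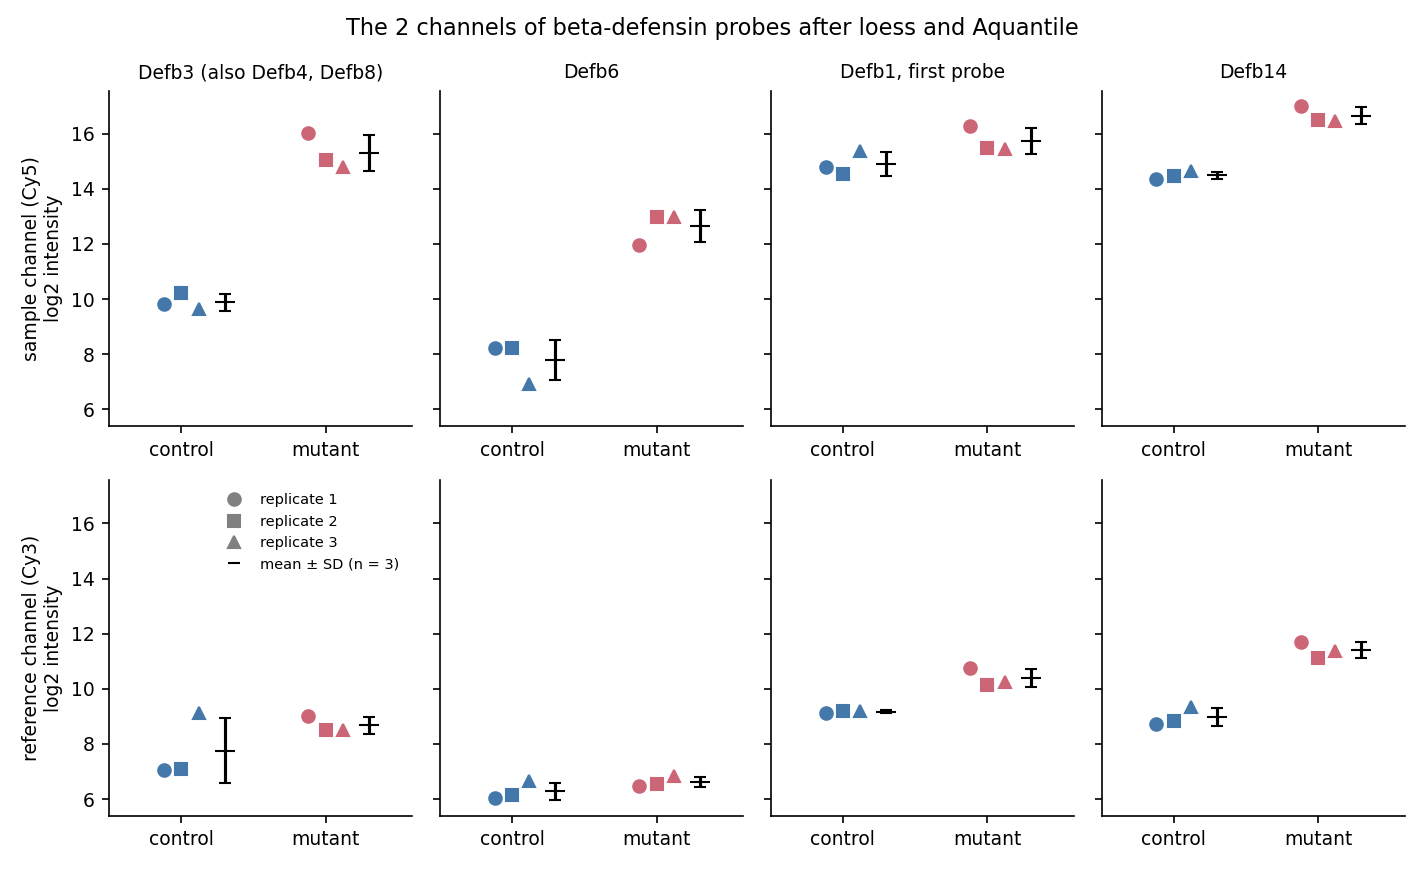
Log2 intensity in the sample channel (upper panels) and reference channel (lower panels) for the Defb3, Defb6, Defb1 and Defb14 probes on each array, with the mean ± SD (n = 3). Mutants lie above controls in the sample channel of all 4 panels, and for Defb1 and Defb14 also in the reference channel.

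Defb14, the counterpart of human beta-defensin 3, was picked out after its values were seen, because its channels also moved together. Its sample-channel intensity was 14.4, 14.4 and 14.6 log2 units in controls and 17.0, 16.5 and 16.5 in mutants. This rise of 2.17 (SE 0.20; 4.51-fold) passed the test (limma, adjusted p = 0.0121). The reference channel rose too, by 2.43 (SE 0.22; adjusted p = 0.0423). The ratio differed by -0.26 (SE 0.15; adjusted p = 0.330) with overlapping groups, and the reference was 1.61% to 3.16% of the sample signal.

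Among the other defensins and their relatives on the array, 15 of 37 genes passed the filter on dim probes and 3 were called higher and none lower, with 1.4% of all genes called higher. All 3 called genes, and 7 of the 15 tested, were well above background on no control. A probe that passed only because it was bright in mutants had to differ, so neither this count nor the median lends the list weight. The median log2 difference of the 15 was 0.40, against 0.01 over all genes tested. Of the 25 other beta-defensin genes 8 were tested, 3 were well above background on 1 or 2 arrays and 14 on none. Defb2, an inducible airway member, was not well above background on any control and was on all mutants. Its sample-channel intensity was at least 6.10-fold higher in mutants (4.34 to 7.51 with 1 array left out). For such bounds the controls are set at the lowest signal well above background, or at their own signal if that is higher. The measured Defb2 ratio differed by 2.24 (SE 0.29; 4.71-fold; limma, adjusted p = 0.0224), and limma on the measured sample signal gave an adjusted p of 0.0435. The alpha-defensin-related Defcr-rs2, of a gene group known from Paneth cells of the small intestine, was likewise dim in all controls. Its mutant intensity in the sample channel exceeded theirs at least 23.2-fold (18.8 to 34.9 with 1 array left out). The measured Defcr-rs2 ratio differed by 3.96 (SE 0.30; 15.6-fold; limma, adjusted p = 0.0056), and the measured sample signal had an adjusted p of 0.0161 in limma. Defcr-rs12, also dim in all controls, was at least 1.33-fold higher (limma on the ratio, adjusted p = 0.0428). The cryptdin-related genes are close copies of each other, so which of them these probes read is uncertain. The count of 3 was 1 without control 1, control 2, mutant 2 or mutant 3, and 6 without mutant 1.

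The neighbours whose start regions match the Defb3 probe were weak at their own probes. Defb8 was well above background on no array and Defb5 on mutant 1 alone, at raw sample intensities of 43.1 to 58.3 in controls and 73.2 to 84.3 in mutants. Defb7 read log2 ratios of 0.62, 0.73 and -0.14 in controls and 3.07, 1.95 and 1.92 in mutants. Its groups did not overlap, as for 19.6% of all genes tested in this direction, and the difference of 1.91 (SE 0.39; adjusted p = 0.0607) did not pass. No probe was named Defb46. Along chromosome 8 the files place 22 beta-defensin probes of 21 genes, of which 8 genes were tested and Defb2, Defb3 and Defb6 called. Over all genes 2.82% were called, and 1.4% were called higher. Defb2 passed the filter through the mutants alone, and Defb3 and Defb6 are the members given above. This count therefore lends the cluster no weight. The 13 probes not tested had differences of -0.29 to 0.83.

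**Figure D4:**
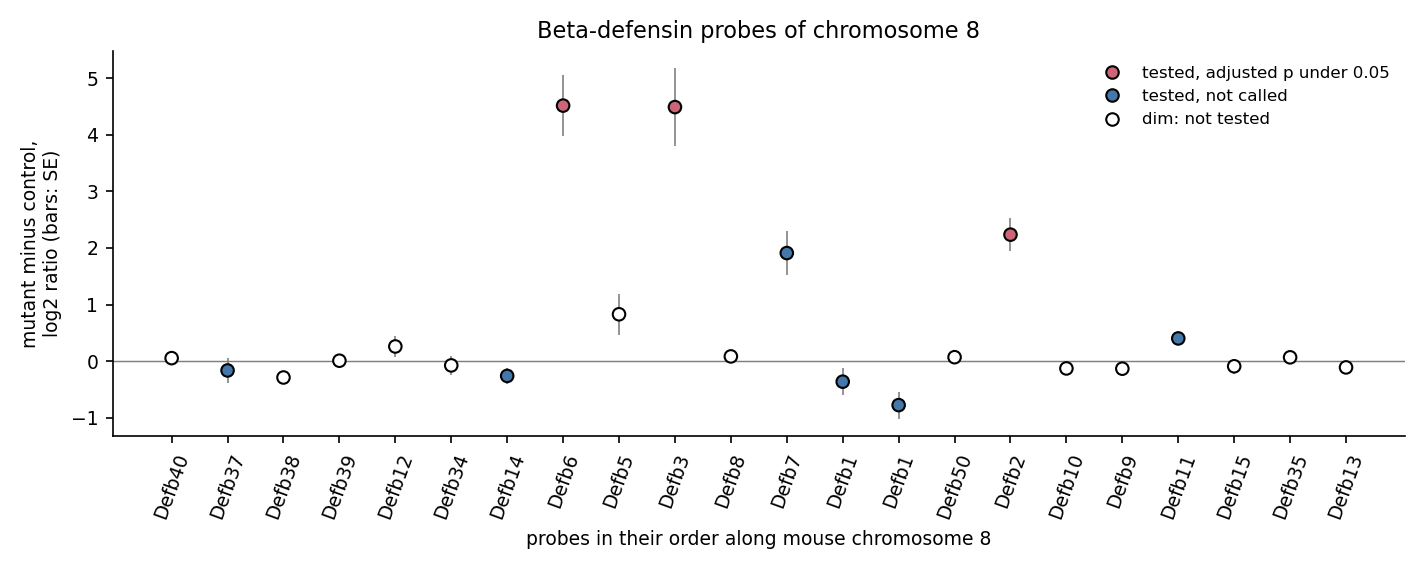
Mutant minus control difference in log2 ratio (bars: SE) of the 22 beta-defensin probes placed on chromosome 8, in their order along it but not to scale. Defb6, Defb3 and Defb2 are called, Defb7 (1.91) is not, and open circles mark probes too dim to test.

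The 250 bases before the RefSeq start of Defb6 and Defb3 (GRCm38.p6, plus strand) are printed because the probes named after both genes rose; how much of the Defb3 probe's rise is Defb3 itself was not measured. They were searched on both strands for motifs that had been picked with the sequences in view. Capitals mark the octamer ATTTGCAT, which POU factors bind, and TATAA.
Defb6 at chr8:19225228-19225477: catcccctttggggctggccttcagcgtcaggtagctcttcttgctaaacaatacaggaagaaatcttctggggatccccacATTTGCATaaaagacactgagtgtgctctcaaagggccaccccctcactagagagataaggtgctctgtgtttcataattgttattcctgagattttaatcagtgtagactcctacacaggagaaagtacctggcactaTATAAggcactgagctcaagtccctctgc
Defb3 at chr8:19293111-19293360: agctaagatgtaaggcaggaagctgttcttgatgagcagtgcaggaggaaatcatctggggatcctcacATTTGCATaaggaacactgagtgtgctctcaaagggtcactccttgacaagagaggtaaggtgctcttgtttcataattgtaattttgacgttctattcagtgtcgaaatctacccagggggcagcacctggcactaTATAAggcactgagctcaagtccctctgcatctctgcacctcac

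These promoters shared 196 of 265 aligned columns (74.0%), and Defb3 shared 86.7% with Defb8. The octamer lay 168 to 161 bases before the start in Defb6 and 181 to 174 in Defb3. It was found in 526 of 32851 windows of that length (1.601%), Defb5, Defb46 and Defb9 among them, and not in Defb7 or Defb8. TATAA ended 25 bases before the start in Defb6 and 40 in Defb3, and occurs in 22.8% of windows. The SOX core AACAAT was found in Defb6, 203 to 198 bases before the start and on the opposite strand at 91 to 86, and in 9.42% of all windows. It was not found in the Defb3 window. An NF-kB motif lay at 180 to 171 in Defb6 (7.25% of windows), overlapping no other motif searched. The AP-1 motif TGANTCA (6.75%) and the STAT motif TTCNNNGAA (7.02%) were found in neither. A match is a description of letters and shows no binding. Defb1, Defb2, Defb4 and Defb14 were not in the table of promoters.

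Among known inducers of beta-defensins (cytokines, their receptors, microbial sensors and transcription factors), 53 of 54 listed genes were on the array and 48 were tested. Of these, 5 were called higher and none lower, with a median log2 difference of 0.12, against 1.4% called higher and a median of 0.01 over all genes. In the 48 are 2 genes that were well above background on no control and passed the filter through the mutants alone, Il19 among the 5. Il19, a cytokine of the IL-20 group that acts on epithelia, was well above background on no control and on all mutants. Its measured ratio rose by 4.27 (SE 0.11; 19.3-fold; limma, adjusted p = 0.000231). Its sample channel was at least 174-fold higher in mutants (limma on the measured sample signal, adjusted p = 0.0249). With 1 array left out that bound was 79.7-fold to 301-fold, and leaving out mutant 1 gave the lowest value. The reference channel, with the same RNA on every array, was higher too, by 3.49 (SE 0.96; limma, adjusted p = 0.506). Il20ra, a receptor subunit for that cytokine group, rose by 1.61 (SE 0.10; adjusted p = 0.00373). Its partner subunit Il20rb, picked out after its values were seen, differed by -0.74 in the ratio (SE 0.42; adjusted p = 0.325) and fell by 1.24 in the sample channel (SE 0.20; adjusted p = 0.0476). Il1rl2, the IL-36 receptor, rose by 1.09 (SE 0.12; adjusted p = 0.0142). Il1b, the inflammatory cytokine IL-1 beta, rose by 3.07 (SE 0.44; adjusted p = 0.0282). Hbegf, a ligand of the EGF receptor, rose by 1.61 (SE 0.24; adjusted p = 0.0309). The count of 5 was 2 without control 1, control 2, mutant 2 or mutant 3 and 7 without control 3. In the sample channel alone Il1b (adjusted p = 0.0567) and Hbegf (0.0592) did not pass.

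Of the receptors and partners of beta-defensins, 1 of 13 tested was called higher and none lower, with a median log2 difference of 0.62, against 1.4% called higher over all genes. This was Ccl20, the chemokine ligand that shares the receptor CCR6 with beta-defensins, at 3.61 (SE 0.35; limma, adjusted p = 0.0103). Its call was lost without control 1 (3.55, adjusted p = 0.0695), control 2 (3.55, 0.0768) or mutant 2 (3.78, 0.0548). The receptor gene Ccr6 differed by 0.72 (SE 0.56; adjusted p = 0.462), which did not pass.

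Of the other epithelial and secreted antimicrobial proteins, 5 of 36 tested were called higher and none lower, with a median log2 difference of 0.62, against 1.4% called higher over all genes. Of the 36, 3 passed the filter through the mutants alone, with no control well above background, and Reg3b among the 5 was one of them. S100a8, a subunit of the metal-binding protein calprotectin, rose by 7.85 (SE 0.46; limma, adjusted p = 0.0034). Reg3b, a bactericidal C-type lectin, was dim in all controls, and its mutant intensity in the sample channel exceeded theirs at least 74.7-fold (43.1 to 141 with 1 array left out). Its call is that of the ratio (limma, adjusted p = 0.00488), where the log2 difference was 4.89 to 5.63 with 1 array left out. The other calls were S100a7a, the mouse psoriasin, at 1.69 (adjusted p = 0.0118), the peroxidase gene Lpo at 1.98 (0.0246) and Wfdc18, which encodes a whey acidic protein fold, at 2.59 (0.0451). The count of 5 was 2 without control 1, control 2, mutant 2 or mutant 3 and 8 without control 3.

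The summed signals of neutrophil and of macrophage markers were higher on every mutant than on every control. Within the mutants the neutrophil sum was highest on mutant 1 (1327180), which was the highest mutant for the Defb3 probe and the lowest for Defb6. Of 20 neutrophil markers, 11 to 12 were well above background on the controls and 18 on each mutant, with summed sample signals of 212131 to 219808 and of 401083 to 1327180. The granule gene Elane was well above background on no array, whereas Retnlg, Fpr1, Mmp8, Ngp, Csf3r and Fpr2 were so on the mutants but on no control. Prtn3, another granule gene, was well above background on 2 controls and on no mutant. Of the 18 tested, Retnlg, Cd177 and Fpr1 were called higher. The 6 genes dim in all controls, Retnlg and Fpr1 among them, passed the filter through the mutants alone, so that count is no measure of the list. Over all genes 1.4% were called higher, which applies to each list named here. The 14 macrophage markers had summed signals of 28791 to 37113 in controls and 55063 to 64678 in mutants, and 2 were called higher. The summed Paneth cell markers, a list that itself holds defensins, were 9408 to 18998 in controls and 26350 to 28512 in mutants. Of 6 tested, 4 were higher and 2 lower in the ratio, and 1, Mmp7, was called higher. The bright Lyz1 rose by 2.15 without passing (limma, adjusted p = 0.098). Ang4, Itln1 and Defcr3 differed by only 0.05, -0.02 and -0.19. The T and innate lymphocyte markers summed to 13685 to 15908 and 18772 to 24627, with none of 9 called. The part of these cells in the defensin and cytokine results was not tested.

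The genes most like each member over the 6 arrays were taken from 1541 genes whose log2 ratios ranged over at least 2 units, by Pearson correlation and as a description. The arrays share slides and the reference RNA, and most of the spread lies between the groups and on control 3. Closest to Defb3 were Ceacam2 (r = 0.998), Depdc1b (0.996) and Aldh1a3 (0.996). Defb6 was closest to Sprr2f (0.996), C4b (0.995) and Sprr2h (0.995), where the Sprr2 genes encode cornified envelope proteins and C4b a complement component. Defb1 was closest to Hrnr (0.968) and Lce1a2 (0.965), both of the cornified layer, and to Cyp2f2 (0.960). The neighbours of Defb3 and Defb6 were called higher, and those of Defb1 were lower in mutants by 0.87 to 1.07 without passing (adjusted p from 0.227 to 0.279). Genes picked for likeness to a member share its direction through that choice, so these directions lend the members no weight.

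**Figure D5:**
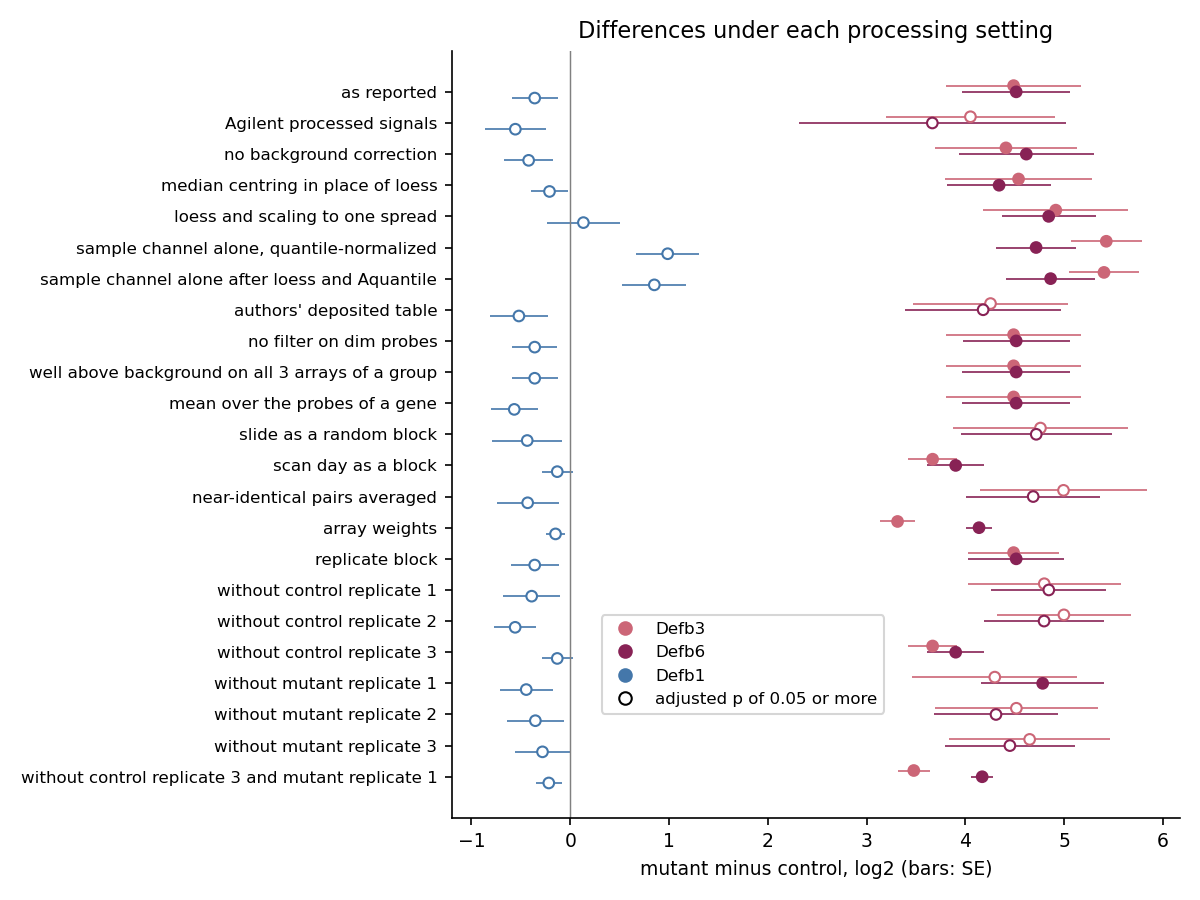
Mutant minus control differences (bars: SE) of Defb3, Defb6 and Defb1 under each processing setting, with filled points for adjusted p under 0.05. Defb3 stays between 3.31 and 5.42 and Defb6 between 3.66 and 4.86, while Defb1 changes sign with the scaling of the ratios and with the sample channel alone.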

How the data were processed

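The scanner intensity values of 6 two-colour arrays were deposited by the authors as mean signal and local background per spot; Feature Extraction 10.7.3.1 (control 3) or 10.5.1.1 (all others) and the mm9 build are named per the file headers, and version 9.1 per the submitters' processing notes. The software also set flags for spots above background, saturated or outlying, and processed signals, per the file headers. The authors' deposited table of log2 ratios, whose centring is unknown, served as an alternative; its columns for mutants 1 and 3 matched each other's scanner files (r = 0.989 and 0.988) better than their own (0.909 and 0.911).

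Signals were corrected with normexp (offset 50), normalized by loess, and for single channels by Aquantile, in limma 3.58.1 under R 4.3.3. Probes well above background on at least 3 arrays were kept. Each of 20570 genes was represented by its brightest probe, with 79.5% of probes named through RefSeq (GRCm38.p6). Groups were compared with lmFit and eBayes (4 residual degrees of freedom), two-sided, with Benjamini-Hochberg adjustment over genes. Precision is limited by the number of arrays. The script was tested on simulated data. Members, lists and motifs were chosen with earlier results of these data known. Named were all member probes, called list members (at most 6 a list, otherwise the 2 of smallest p) and the 3 most alike genes; Defb5, Defb7, Defb8, Defb14, Ccr6 and Il20rb were added after their values were seen. Alternatives concerned background, normalization, filter, probe choice, slide, scan day, array weights, left-out replicates and the replicate number as a block.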

Additional observations from a re-analysis of the deposited data

How the results depend on the processing

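Over the 22 alternatives to the ratio, Defb3 and Defb6 were higher in mutants under each one, at 3.31 to 5.42 (adjusted p from 1.48e-05 to 0.394) and 3.66 to 4.86 (2.15e-06 to 0.313). They lost the call with Agilent's processed signals (4.05 and 3.66), the authors' deposited table (4.25 and 4.18), slide as a random block (4.76 and 4.72) and near-identical pairs averaged (4.99 and 4.69); without both control 3 and mutant 1 they were 3.48 and 4.17, and with 1 replicate left out they ranged from 3.67 to 4.996 and from 3.90 to 4.84. Defb1 and Defb14 turned positive with scaling to one spread (0.13 and 0.22), the quantile-normalized sample channel (0.99 and 2.30) and the sample channel after Aquantile (0.85 and 2.17); the cause was not tested. Genes called in the ratio numbered 325 with processed signals, 268 with median centring, 312 and 346 in the sample channel quantile-normalized and after Aquantile, 4 with the slide block, 1481 with scan day as a block (the same as without control 3), 11559 with array weights, 7734 without control 3 and mutant 1, and 0 by limma with pairs averaged (2197 at an unadjusted p under 0.05). With 1 replicate left out they ranged from 34 to 1481, in the sample channel from 5 to 1500 and in the reference channel from 0 to 211; there limma gave 0 without control 1, mutant 2 or mutant 3 (1923, 752 and 710 at an unadjusted p under 0.05). The replicate numbers did not pair the arrays (correlations of deviations 0.0046, 0.019 and 0.13), and the replicate block called 137 genes, Defb3 (adjusted p = 0.0413) and Defb6 (0.0445) among them and Defb1 (0.428) not. Of 352 further comparisons, of 16 other genes under the alternatives, 263 kept direction and call, 82 lost the call, 4 gained it and 3 reversed (Defb14, above). Channel alternatives and counts per list were chosen after seeing the data. Defb4 had no probe of its own and no alternative.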
